A study of Mus musculus with 1504 samples.

Results

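Lung pericytes were described here as 56 single cells, chosen by their own reads from 1504 sorted cells of adult mouse lung. A cell was taken when at least 2 of the 4 genes Cox4i2, Higd1b, Trpc6 and Lamc3 stood at 20 CPM (a gene's reads in a cell per 1000000 reads of that cell) or more, Pdgfrb at 1000 CPM or more, Myh11 under 500 CPM, and the lung epithelial transcripts Sftpc and Scgb1a1 together under 10000 CPM. The cells come from the column sets Mural1, which gave 23 of its 128 cells, and Mural2, which gave 33 of its 233 cells. In these sets 281 of 361 cells were under the epithelial limit, so 225 remained for comparison. None of the 374 Mural3 cells and none of the 769 cells of the endothelial sets met the same thresholds.

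The series profiled C57BL/6 mice whose vascular cells carry fluorescent reporters: 769 cells are labelled Cldn5(BAC)eGFP, where the endothelial junction gene Cldn5 drives green fluorescent protein from an artificial chromosome, 374 Pdgfrb(BAC)eGFP and 361 Pdgfrb(BAC)eGFP with NG2dsRed, where NG2 is the protein of Cspg4. The mice were 12 to 15 weeks old by the sample labels and 10 to 19 weeks old by the series design, and no treatment is named. Fluorescent cells were collected 1 to a well in 384-well plates by flow sorting, and libraries were made by SMART-seq2, which copies whole polyadenylated transcripts and carries no molecular identifiers. Mural1 and Mural2 hold 361 columns, as many as the Pdgfrb-eGFP and NG2-dsRed label, but no column name gives a reporter, an animal or a date. Pdgfrb is expressed by pericytes, smooth muscle and fibroblasts, so the sort did not select 1 mural type.

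Pericytes are the cells that lie in the basement membrane of capillaries, wrapped around the endothelial tube. They depend on platelet-derived growth factor from endothelium acting on the receptor Pdgfrb, and they are known to stabilise capillaries and to take part in setting capillary tone. In the lung they share the capillary wall with a dense endothelium, and they are commonly told from smooth muscle by lack of the contractile proteins Acta2 and Myh11, and from fibroblasts by lack of Pdgfra and Dcn.

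Every value below describes these cells and is not a test. The labels name no animal or plate, so each population counted as 1 sample, and the cells were selected on reads of the same table. Levels are pooled CPM, in which the reads of a gene and all reads are first summed over a group's cells, so deeper cells weigh more. Intervals after a fold are exact 95% intervals for the counted reads and cover counting error only. They say nothing of the spread between animals, cells or column sets, which can be far wider. Pericytes held 101303 to 385616 reads (median 147475) and a median of 2875.5 detected genes, against medians of 298671 reads and 4099 genes in the other 225 cells. With every cell thinned to 50000 reads the medians were 2478.5 and 3409 genes, and every count of cells with a read given below was made after this thinning. Gene lengths were not used, so levels are compared between cells and not between genes.

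The other 225 cells were divided by fixed levels. Cells with Myh11 at 500 CPM or more were called Myh11-high (79 cells), and cells with less Myh11, Dcn at 1000 CPM or more and Pdgfra at 20 CPM or more were called Dcn-high (97 cells), which left 49. The summed smooth muscle markers stood at a median of 57143 CPM per cell in Myh11-high cells and 1397 CPM in pericytes, and the summed fibroblast markers at 58764 CPM in Dcn-high cells and 2482 CPM in pericytes. The 761 columns of the endothelial sets under the same epithelial limit served as a further comparison.

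3 of the 4 marker genes of the rule carried it. Cox4i2, which encodes an isoform of a subunit of mitochondrial cytochrome oxidase, was at or above 20 CPM in 56 of 56 pericytes, Higd1b, named for a hypoxia-inducible domain family, in 55 and the cation channel Trpc6 in 54. Lamc3, a laminin chain, reached that level in only 6 of 56 pericytes and in 24 of the other 225 cells, and its pooled level was 38.3 CPM against 28.3 CPM, so it did not mark these cells. Without the 1 cell that held 42.2% of its pericyte reads its log2 difference was -0.31 in place of 0.44. 47 pericytes held 3 of the markers, 6 held 4 and 3 held 2. In the RefSeq annotation of GRCm38.p6 Cox4i2 lies at chr2:152753916-152765039, Higd1b at chr11:102835761-102844141, Trpc6 at chr9:8543867-8680752 and Lamc3 at chr2:31887281-31949083.

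The lowest, median and highest pericyte had 41.5, 1407 and 3356 CPM of Cox4i2, against 0, 0 and 2769 CPM in the other cells and 0, 46.5 and 2769 CPM in Myh11-high cells. For Higd1b these were 0, 695 and 2190.5 CPM in pericytes and 0, 0 and 1886 CPM in the others, and for Trpc6 0, 681 and 3979 CPM and 0, 0 and 3548 CPM. All 3 ranges overlapped those of the other cells, in which a few cells reached pericyte levels while the median was 0. The highest of these were among the 15 cells described below that only Myh11 kept out. In the remaining 64 Myh11-high cells the highest levels of Cox4i2, Higd1b and Trpc6 were 258, 128 and 387 CPM. Pdgfrb, for which a reporter is named in the labels, had a lowest, median and highest level of 1002, 6016 and 12128 CPM in pericytes and had a pooled level of 6161 CPM, against 1197 CPM in Myh11-high, 690.0 CPM in Dcn-high and 1.44 CPM in endothelial cells. Because these genes chose the cells, their differences support nothing further.

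**Figure D1:**
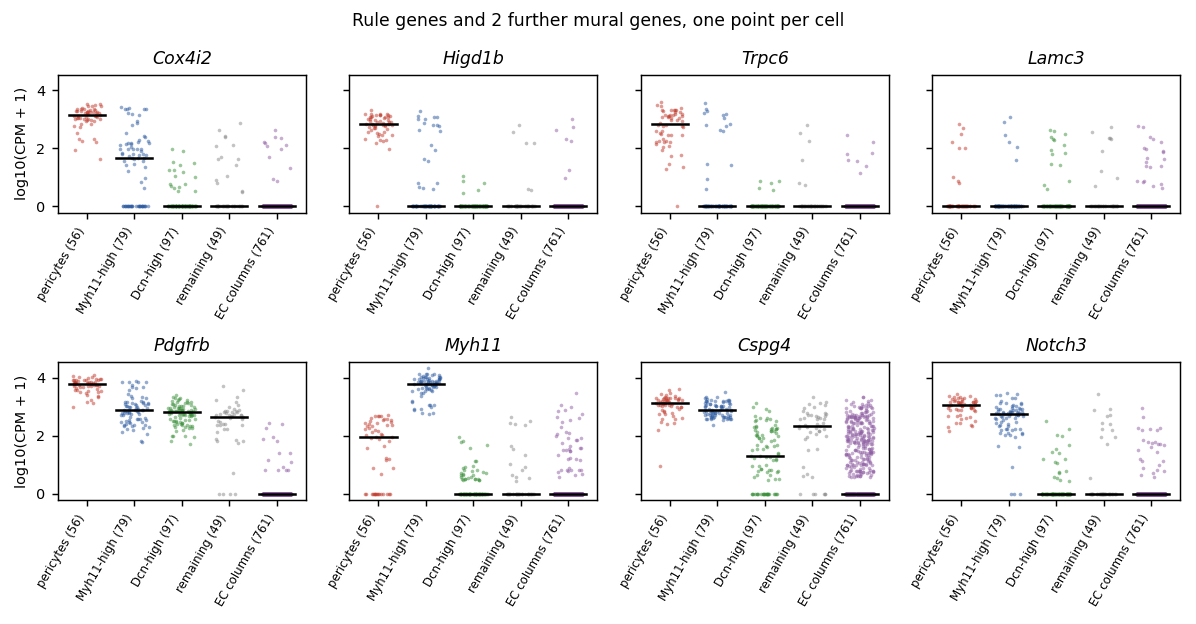
Level of 8 genes in single cells, as log10(CPM + 1), by cell group with the number of cells in parentheses. Each point is a cell and each bar the median. Cox4i2, Higd1b and Trpc6 were present in nearly all pericytes and Lamc3 in few, and Cspg4 and Notch3 were also present in most Myh11-high cells.

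The thresholds fell at unequal distances from the cells. The nearest Pdgfrb levels inside and outside were 1002 and 894 CPM, with 5 cells kept out by Pdgfrb alone. The nearest Myh11 levels were 497 and 624 CPM, with 15 cells kept out by Myh11 alone and 10 pericytes within 1.5-fold of the limit. The nearest summed levels of Sftpc and Scgb1a1 were 9928 and 18118 CPM, with 7 cells kept out by that limit alone.

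The 15 cells that only their Myh11 kept out, 3 of Mural1 and 12 of Mural2, were high in Pdgfrb and the rule markers by this definition, so only other genes describe them. Vtn, encoding the adhesive protein vitronectin, stood at a pooled 601 CPM in them and 0.487 CPM in the remaining 64 Myh11-high cells, and the endothelial-type lipase gene Lipg at 504 and 1.95 CPM. Smooth muscle actin Acta2 was mixed: its pooled level was 9082 CPM in the 15 cells, 34791 CPM in the 64 and 176 CPM in pericytes, while its median was 8.69 CPM in the 15 and 33176 CPM in the 64, where no cell was below 9723 CPM. 9 of the 15 had Acta2 between 0 and 409 CPM with Myh11 between 624 and 2258 CPM, and 6 had Acta2 between 1740 and 51877 CPM. Levels of pericyte genes in Myh11-high cells given below therefore include these 15 cells. The highest other-cell levels given below for Lipg, Pdzd2 and Agtr1a were also in these 15. In the 64 the highest were 122, 993 and 405 CPM.

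**Figure D2:**
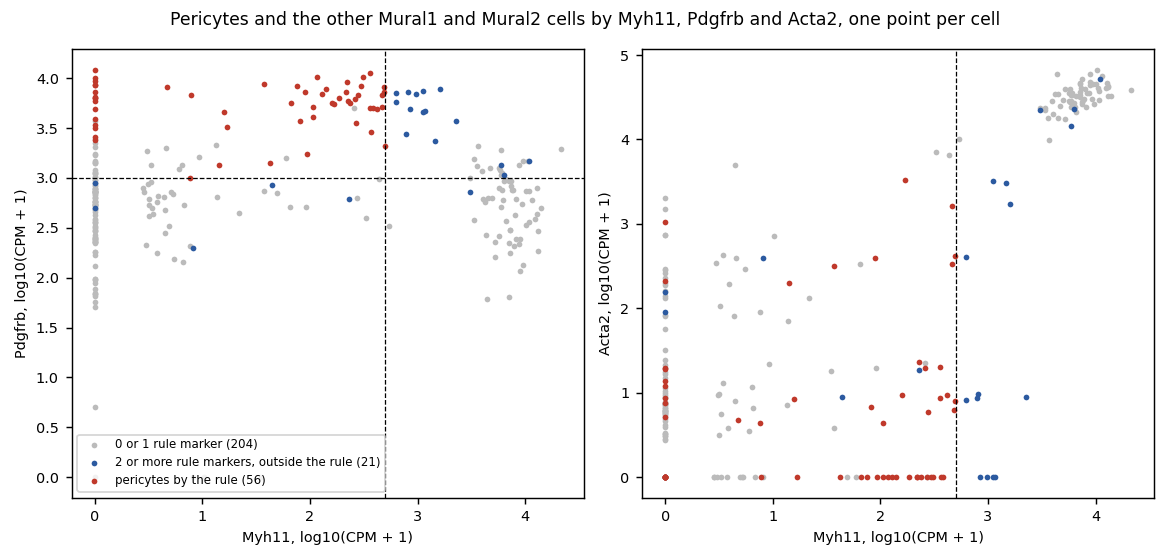
Myh11 against Pdgfrb (left) and Acta2 (right) in the 281 Mural1 and Mural2 cells under the epithelial limit, as log10(CPM + 1), with dashed lines at the rule's limits of 500 and 1000 CPM. Red points are the 56 pericytes, and of the 21 blue points, which hold 2 or more rule markers outside the rule, 9 lie right of the Myh11 limit with Acta2 under 1000 CPM.

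Myh11 itself was read in 37 of 56 pericytes, at a pooled 139.6 CPM. In Dcn-high cells, thinned alike, 10 of 97 cells held a read and the pooled level was 4.23 CPM. Both groups were cut on Myh11, so these values are only descriptive.

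Across the 21948 features of the table a gene was said to pass at a fold of 4 or more, provided the group with the higher level reached 50 CPM and showed the gene in 25% of its thinned cells or more. Groups with fewer than 3 reads were counted as having 3. Against the other 225 cells 356 genes were higher in pericytes, 1.62% of the table, and 455 were lower, 2.07%. All 356 were also higher within Mural1 and within Mural2, and of the 455, 455 and 454 were lower within Mural1 and Mural2. The genes were chosen on both sets pooled, so their direction within each was largely fixed and supports nothing further. The 4-fold difference held for 321 of the 356 within Mural1 and 301 within Mural2. Among the 10962 genes with at least 10 CPM on 1 side the median log2 difference was 0.17. Scaling by trimmed means (TMM) in place of total reads shifted all differences by -0.33 on the log2 scale, to 264 genes higher and 562 lower. With median-ratio factors these counts were 268 and 545, so the balance of higher and lower genes depends on the scaling.

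Against Myh11-high cells 361 genes were higher in pericytes (1.64%) and 434 lower (1.98%), or 274 and 550 with TMM. Against Dcn-high cells 494 were higher (2.25%) and 463 lower (2.11%), or 339 and 655 with TMM. Of the 356 genes higher than in the 225 other cells, 257 were also higher than in Myh11-high cells, 338 than in Dcn-high cells and 157 than in both and in endothelial cells. The comparisons share the 56 pericytes, and the other cells contain both classes, so these overlaps are not independent. No call among the 161 named genes that passed turned its direction under any scaling or choice of cells tried.

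**Figure D3:**
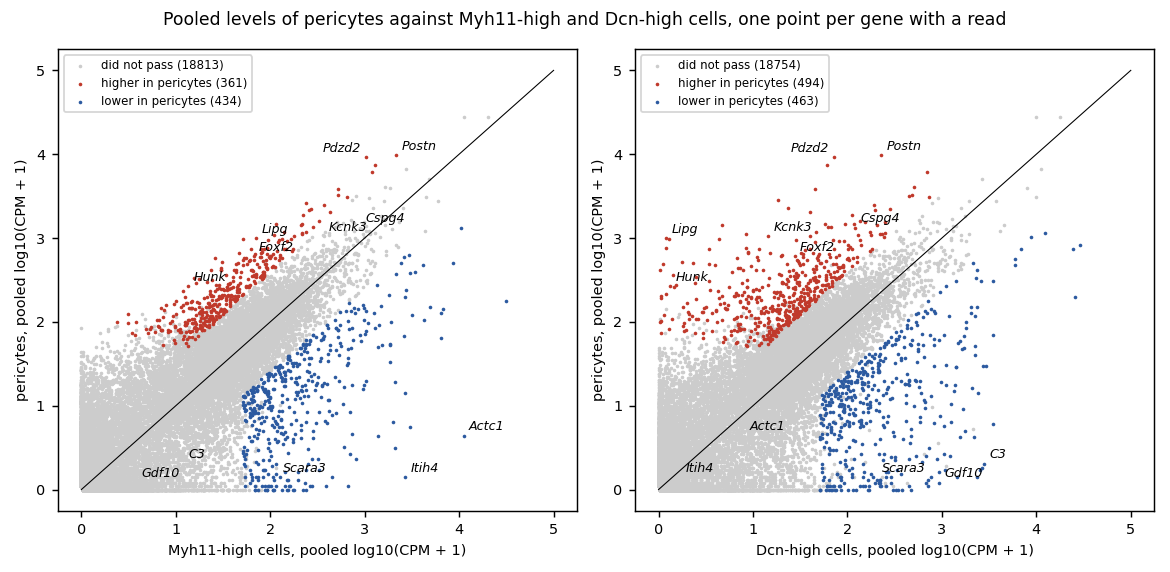
Pooled log10(CPM + 1) of each gene in pericytes (vertical) against Myh11-high cells (left) and Dcn-high cells (right). Each point is a gene, red where it passed higher in pericytes and blue where lower, and the line marks equal levels. Pdzd2 and Postn stand high in pericytes in both panels.

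The largest folds on the pericyte side belonged to genes of several kinds. Lipg, a secreted phospholipase that acts on lipoproteins, stood at 0, 856 and 2827 CPM in the lowest, median and highest pericyte, and its median was 0 in each other class. Its pooled level was 997 CPM against 69.7 CPM in Myh11-high, 0.211 CPM in Dcn-high and 3.09 CPM in endothelial cells, and its fold over the other 225 cells was 40.2-fold (38.2 to 42.3). The highest other cell, at 2377 CPM, reached the pericyte range, so the groups overlapped at single cells.

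Adcy8, an adenylyl cyclase stimulated by calcium and calmodulin, stood at 0, 637 and 4116 CPM in pericytes, at a pooled 966 CPM against 18.3 CPM in the other cells, 52.8-fold (49.7 to 56.0). Within Mural1 its log2 difference was 7.1 in place of 5.72. Its reads were found in 47 of 56 pericytes and 17 of 225 other cells. Pdzd2, a protein with PDZ domains, was among the most abundant messages, with 8.37, 9676 and 19977 CPM in pericytes and a pooled 9152 CPM, against 0, 19.3 and 23512 CPM in the other cells. All but 1 pericyte held a read of it after thinning, and the lowest overlapped the others.

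Hunk, a kinase of the AMPK-related group, was 56.1-fold (50.0 to 63.1) higher, Tmem200a, a transmembrane protein, 51.6-fold (47.6 to 56.0), and Fam162b 30.5-fold (28.4 to 32.8). Such pooled folds hide differences between the column sets. The log2 difference was 6.72 within Mural1 and 4.97 within Mural2 for Hunk, and 7.67 and 3.99 for Fam162b. Hbegf, a ligand of the EGF receptor family, had 737 CPM against 24.2 CPM, 30.5-fold (28.9 to 32.2), and the chemokine receptor Cxcr4 122 against 4.41 CPM, 27.7-fold (24.4 to 31.5). Rgcc, a regulator of the cell cycle, stood at 444 against 17.6 CPM, Adrbk2, a kinase that desensitises G protein coupled receptors, at 312 against 12.6 CPM, and Cdk18, a cyclin-dependent kinase, at 272 against 10.2 CPM. These genes were read in 30 to 51 of the 56 pericytes.

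The 2 largest folds rested on few cells. Olfr550, an olfactory receptor gene, was 153-fold (113 to 212) higher but read in 17 of 56 pericytes, with a median of 0, and belongs to a large gene family whose reads a counter may split. Rassf6, of the Ras association domain family, was 87.8-fold (69.4 to 113) higher and read in 14 pericytes, where 1 cell held 30.9% of its reads. The phosphatase Dusp4 (73.0 against 2.13 CPM, 14 cells) and the erythropoietin receptor Epor (78.5 against 2.35 CPM, 18 cells) were also read in few cells. Also among the genes of largest fold were Wfdc8, Fam19a1, Baiap3, Eogt and Col7a1, at 51.2-fold, 38.1-fold, 25.3-fold, 24.8-fold and 24.1-fold. For Fam19a1 the log2 difference was 9.45 within Mural1 and 3.86 within Mural2.

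**Figure D4:**
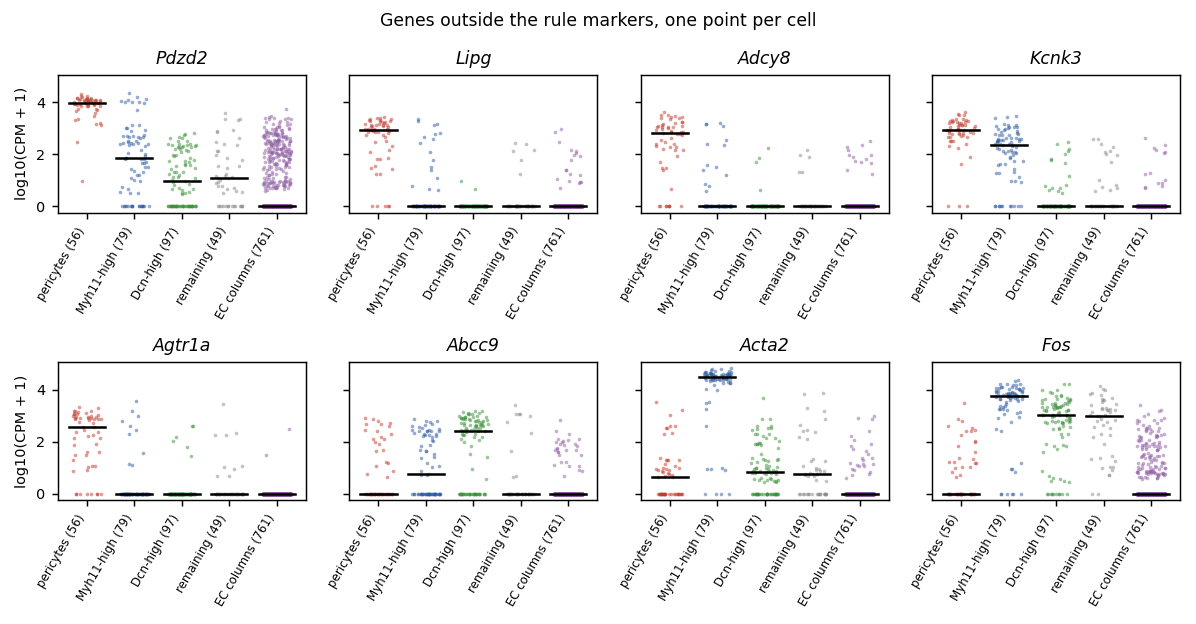
Level of 8 genes in single cells, as log10(CPM + 1), by cell group with the number of cells in parentheses. Each point is a cell and each bar the median. Lipg, Adcy8 and Agtr1a had medians of 0 in each group but pericytes, Abcc9 had its highest median in Dcn-high cells, and most pericytes were at or near 0 for Acta2 and Fos.

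For the list counts from here on, 1.62% of all genes in the table were higher and 2.07% lower than in the other cells. Against Myh11-high cells these shares were 1.64% and 1.98%, and against Dcn-high cells 2.25% and 2.11%. Of 18 listed pericyte markers 12 passed higher than in the other cells and none lower, with a median log2 difference of 2.96 beside 0.17 over all genes, and 3 of the 12 were rule markers and 1 was Pdgfrb. Against Myh11-high cells 8 passed higher and none lower, or 7 and none with TMM, with a median log2 difference of 1.74. The same 3 rule markers and Pdgfrb were among the 8. Notch3, a receptor of mural cells, had a lowest, median and highest level of 146, 1146 and 2722 CPM in pericytes, and its pooled 1120.0 CPM was 5.25-fold (5.12 to 5.38) above the other cells but only 1.83-fold above Myh11-high cells. Vtn had a lowest, median and highest level of 0, 495 and 2951 CPM, with a pooled 687 CPM against 81.7 CPM in Myh11-high and 7.76 CPM in Dcn-high cells. Cspg4, the gene behind the NG2 reporter, did not pass: it stood at 1332 CPM in pericytes, 883 CPM in Myh11-high and 120.3 CPM in Dcn-high cells. The eGFP reads were 3194 CPM in pericytes, 528 CPM in the other cells and 3437 CPM in the columns of the endothelial sets.

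Genes known from brain pericytes were present in part. Of 20 such genes 7 were higher than in the other cells and 2 lower, or 5 and 2 with TMM, with a median log2 difference of 1.24 over the 14 expressed. Besides Vtn the higher genes included Art3, an ADP-ribosyltransferase relative (645 against 52.1 CPM), Ifitm1, an interferon-induced membrane protein (551 against 52.5 CPM), and Foxf2, a forkhead factor (602 against 37.1 CPM). The pair that forms a vascular ATP-sensitive potassium channel did not follow: Kcnj8 stood at 133 CPM in pericytes and 283 CPM in Dcn-high cells, and its partner Abcc9 at 108 and 390.3 CPM. Kcnj8 was read in 12 of 56 pericytes and 57 of 97 Dcn-high cells. Rgs5, a regulator of G protein signalling widely used as a pericyte marker in other organs, was read in only 2 of 56 pericytes, and 1 of them held 71.4% of its reads. Without that cell its log2 difference from the other cells was -1.31 in place of 0.47. The aminopeptidase Anpep was lower, at 4.73 against 56.5 CPM, with 60.9% of its pericyte reads in 1 cell and a log2 difference of -4.90 without it in place of -3.58.

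The promoters of a rule marker and of 2 further pericyte genes are shown as examples that held matches to motifs of the pathways described below. They are 300 bases from 250 before to 50 after the RefSeq start, build GRCm38.p6, read 5′ to 3′ on the gene's strand, with motif matches in capitals: Trpc6 (chr9:8543892-8544191, plus strand), Vtn (chr11:78498870-78499169, plus strand) and Nrarp (chr2:25180508-25180807, plus strand).
Trpc6: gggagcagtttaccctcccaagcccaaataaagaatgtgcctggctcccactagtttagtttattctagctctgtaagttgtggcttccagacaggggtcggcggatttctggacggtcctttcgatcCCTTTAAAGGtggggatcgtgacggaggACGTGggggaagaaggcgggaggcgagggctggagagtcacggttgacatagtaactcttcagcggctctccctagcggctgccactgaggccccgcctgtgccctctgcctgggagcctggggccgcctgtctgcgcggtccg
Vtn: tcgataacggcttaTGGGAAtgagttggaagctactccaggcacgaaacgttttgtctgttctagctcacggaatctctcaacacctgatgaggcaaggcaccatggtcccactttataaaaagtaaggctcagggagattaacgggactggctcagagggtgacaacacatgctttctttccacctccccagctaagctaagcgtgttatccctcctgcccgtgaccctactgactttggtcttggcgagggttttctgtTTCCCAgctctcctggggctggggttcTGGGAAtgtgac
Nrarp: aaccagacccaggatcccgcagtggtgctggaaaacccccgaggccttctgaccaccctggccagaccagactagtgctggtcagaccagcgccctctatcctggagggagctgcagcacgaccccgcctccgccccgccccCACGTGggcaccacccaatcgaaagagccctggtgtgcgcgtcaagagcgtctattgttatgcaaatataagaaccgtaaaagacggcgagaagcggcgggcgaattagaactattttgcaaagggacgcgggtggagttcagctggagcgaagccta
The capitals in Trpc6 are a CArG box, the element that serum response factor recognises (position -122 from the start), and an ACGTG, the core of hypoxia-inducible factor sites (-94). The Trpc6 window lies inside the gene span given above, so these positions count from a start within that span and not from its first base. In Vtn they are 3 matches of TGGGAA, the core that the Notch cofactor RBPJ recognises (-236, 12 and 39), and in Nrarp 1 palindrome read as ACGTG on both strands (-108 and -107). Both strands were searched for these motifs, and capitals give the letters of the gene's own strand. Among other genes searched that were higher in pericytes, Notch3 and Lef1 held matches and Postn, Foxf2 and Tbx4 held none. Of genes lower in pericytes, Acta2 held an RBPJ core and Cnn1 a hypoxia-inducible factor core. A CArG box was counted only as CCWWWWWWGG, with W for A or T. Near matches, such as ccctatatgg in the Acta2 window, were not counted. RefSeq's set holds 32851 promoters of this length, of which 25.6% had the RBPJ core, 19.6% the hypoxia-inducible factor core and 1.63% a CArG box. Of 376 promoters of the 258 matched genes among the 356 higher in pericytes, 23.7%, 18.9% and 1.86% held them, and of 430 promoters of 315 matched genes among the 455 lower, 24.9%, 20.9% and 2.56%. Of 147 promoters of 106 matched genes among the 157 higher than in every class, the shares were 24.5%, 17.7% and 2.72%. The 157 genes are part of the 356, so these sets overlap. The CArG box is rare, so its shares rest on few promoters, and no difference from all promoters was tested. A match is a description of letters and not a bound site.

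Some genes of nitric oxide and cGMP signalling were higher in pericytes than in the other cells and others did not pass. Gucy1a3 and Gucy1b3 encode the subunits of the soluble guanylyl cyclase that nitric oxide activates, and Pde5a the phosphodiesterase that breaks down its product cGMP. Gucy1a3 had a lowest, median and highest level of 365, 7581 and 14690.5 CPM in pericytes and 0, 681 and 15137 CPM in Myh11-high cells, and its pooled 7516 CPM was 15.4-fold (15.2 to 15.6) above the other cells and 5.81-fold above Myh11-high cells. Gucy1b3 stood at 2869 CPM against 732 CPM in Myh11-high cells, 3.92-fold, which did not pass that comparison. Pde5a had a lowest, median and highest level of 0, 4187 and 10883 CPM in pericytes, and its pooled 3873 CPM compared with 523 CPM in Myh11-high and 44.9 CPM in Dcn-high cells. Of 21 genes listed 5 were higher than in the other cells, these 3 with Gucy1a2 (263 against 37.5 CPM) and Pde3a (146 against 32.9 CPM), and 1 was lower, the cGMP kinase substrate Mrvi1 (11.8 against 116 CPM). With TMM 4 were higher and 3 lower, and Pde3a no longer passed. 1 cell held 73.9% of the pericyte reads of Mrvi1, and without it its log2 difference was -5.20 in place of -3.30. Against Myh11-high cells 3 of the 21 were higher and 3 lower, or 2 and 3 with TMM. The list's median log2 difference, -0.21 over 15 expressed genes, lay below that of all genes.

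Of 53 vasoactive receptors 5 were higher than in the other cells and 4 lower, which TMM turned to 4 and 5, with P2ry14 no longer passing. Mural1 cells alone gave 8 higher and 3 lower, and Mural2 cells alone 3 and 5, so the balance also depended on the column set. The angiotensin receptor Agtr1a had a lowest, median and highest level of 0, 367 and 2112 CPM in pericytes against 0, 0 and 3646 CPM in the others, at pooled levels of 550.0 and 32.0 CPM, 17.2-fold (16.4 to 18.1). It was read in 43 of 56 pericytes, 9 of 79 Myh11-high and 6 of 97 Dcn-high cells. The thrombin receptor F2r stood at 2475 CPM against 235 CPM, 10.5-fold (10.3 to 10.7). The endothelin receptor Ednra stood at 1079.8 CPM against 359 CPM in Myh11-high and 128 CPM in Dcn-high cells. Its log2 difference from the other cells was 3.19 within Mural1 but 1.83 within Mural2, under the 4-fold limit. The sphingosine phosphate receptor S1pr3 stood at 1356, 479.6 and 65.6 CPM, and the nucleotide sugar receptor P2ry14 at 400.5, 178 and 61.6 CPM, in pericytes, Myh11-high and Dcn-high cells. On the other side, the ATP-gated channel P2rx1 was at 3.60 CPM in pericytes and 726 CPM in Myh11-high cells, and Ramp1, a partner of the receptor for calcitonin gene-related peptide, at 1.34 and 277 CPM. A single cell held 100.0% of the pericyte reads of P2rx1, and a single cell 69.2% of those of Ramp1, and without that cell the log2 differences from the other cells were -9.50 and -7.89 in place of -6.00 and -6.24.

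The channel genes that passed depended on the cells compared. Among 29 genes of potassium channels 3 were higher than in the other cells and none lower, beside 1.62% and 2.07% of the table, with a median log2 difference of -1.05. Kcnk3, a two-pore-domain leak channel, had a lowest, median and highest level of 0, 869 and 4368 CPM in pericytes and 0, 232 and 3056 CPM in Myh11-high cells, with pooled levels of 1044 and 367 CPM, so it was shared with Myh11-high cells and absent from most Dcn-high cells (13.5 CPM). Kcnq5, a voltage-gated channel, stood at 258 CPM against 42.9 CPM in Myh11-high cells, and Kcnj12, an inward rectifier, at 102 against 19.5 CPM, read in 19 pericytes. Against Myh11-high cells 2 potassium channel genes were higher and 5 lower, among the latter Kcna5, a delayed rectifier, with 1 read in pericytes. Of 35 calcium and other cation channel and store genes 5 were higher and 2 lower, or 4 and 2 with TMM. Among the higher, with Trpc6, were the cation channels Trpc1 (51.7 against 10.3 CPM), Trpv2 (108 against 20.2 CPM) and the inositol trisphosphate receptor Itpr2 (484 against 77.0 CPM). Trpc1 was read in 14 and Trpv2 in 22 of 56 pericytes.

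Many contractile genes were lower in pericytes than in Myh11-high cells, which were themselves chosen by Myh11. Of 40 listed genes 26 were lower in pericytes and none higher, with a median log2 difference of -3.03. Against the other 225 cells 16 were lower and 1 higher, or 19 and 1 with TMM. In that comparison Mural1 cells alone gave 9 lower and 2 higher, and Mural2 cells alone 18 and 1. Acta2 had a lowest, median and highest level of 0, 3.57 and 3325 CPM in pericytes and 0, 29616 and 66896 CPM in Myh11-high cells, with 3 pericytes at 1000 CPM or more and 1 of them holding 46.5% of the group's reads. The pooled levels were 176 and 31318 CPM, and the log2 difference from the other cells was -5.81, or -6.68 without that cell. Cardiac actin Actc1 stood at 3.39 against 11135 CPM, calponin Cnn1 at 2.16 against 2099 CPM and transgelin Tagln at 64.1 against 6469.8 CPM. Without the cell with the most reads of each, the log2 differences from the other cells were -9.30 in place of -8.25 for Cnn1 and -5.74 in place of -5.02 for Tagln. Other components stood higher in pericytes than in Dcn-high cells: desmin, Des, stood at 631 CPM against 2955 CPM in Myh11-high and 19.5 CPM in Dcn-high cells, and myosin light chain kinase, Mylk, at 699.8, 1667 and 170.3 CPM. Against Dcn-high cells 7 of the 40 were higher and 1, the intermediate filament Vim, lower, or 5 and 2 with TMM, where Mylk no longer passed. Rgs4, a brake on G protein signalling, was the gene higher than in the other cells (500.3 against 79.9 CPM), though its median was 84.0 CPM in pericytes and it stood at 251 CPM in Myh11-high cells. Its log2 difference from the other cells was 5.27 within Mural1 but 1.71 within Mural2, under the 4-fold limit.

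In PDGF, VEGF and angiopoietin signalling 3 of 25 genes were higher than in the other cells and 2 lower, or 2 and 2 with TMM, under which Angpt1 did not pass, with a median log2 difference of -0.92. Besides Pdgfrb these were the ligand Pdgfa (502 against 73.8 CPM, 6.80-fold, 6.53 to 7.07) and Angpt1, the ligand of the endothelial receptor Tie2 (447 against 102 CPM, 4.36-fold, 4.20 to 4.53). The sister receptor Pdgfra had 3 reads in all pericytes, 0.309 CPM, against 714 CPM in Dcn-high cells, which its level helped to choose.

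Notch receptors were carried by most pericytes. Of 20 pathway genes 4 were higher than in the other cells and 1 lower, or 3 and 1 with TMM, under which Notch2 did not pass. Notch1 was read in 47 of 56 pericytes at a pooled 374 CPM, 8.71-fold (8.29 to 9.14) above the other cells, and Notch2 in 53 at 577 CPM, 4.16-fold. Nrarp, a Notch target that feeds back on the pathway, had a lowest, median and highest level of 0, 361 and 2753 CPM in pericytes, and its pooled 494 CPM compared with 71.2 CPM in Myh11-high cells and 4 reads in Dcn-high cells. Heyl, a transcriptional target, stood at 836 CPM in pericytes and 755 CPM in Myh11-high cells and did not pass there. Rbpj, the DNA-binding cofactor, was lower at 8.33 against 57.4 CPM.

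Basement membrane genes split within the list: 6 of 28 were higher than in the other cells and 7 lower, or 4 and 7 with TMM, under which Col4a1 and Lamb1 did not pass. The type IV collagen chains of most basement membranes were higher, with Col4a1 at 41.5, 3070.3 and 7761 CPM in pericytes and a pooled 3109 CPM against 648 CPM (4.80-fold, 4.73 to 4.87), and Col4a2 at 3256 against 478 CPM (6.81-fold, 6.70 to 6.92). Every pericyte held reads of both, and the ranges overlapped those of the other cells. Egflam, or pikachurin, a matrix proteoglycan, stood at 1087 against 137 CPM, the laminin chain Lamb1 at 706 against 172 CPM and the nidogen Nid2 at 249 against 34.3 CPM. Lower were the chains Col4a5 (9.98 against 140.0 CPM) and Col4a6 (3.81 against 76.3 CPM), the laminin chain Lama5 (4.12 against 82.0 CPM) and Fn1, fibronectin (151 against 2009.8 CPM). For each gene 1 cell, not always the same, held much of the pericyte reads, 79.4% for Col4a5, 83.8% for Col4a6, 80.0% for Lama5 and 91.5% for Fn1. Without that cell their log2 differences were -6.07, -6.93, -6.62 and -7.25 in place of -3.81, -4.32, -4.32 and -3.74.

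Of 38 interstitial and elastic matrix genes 18 were lower than in the other cells and 1 was higher, or 19 and 1 with TMM, with a median log2 difference of -2.40. The exception was periostin, Postn, a secreted matrix protein, which had a lowest, median and highest level of 166, 8116 and 23614 CPM in pericytes against 0, 1200.3 and 25853 CPM in Myh11-high cells, with pooled levels of 9717 CPM against 2153 CPM in Myh11-high and 225 CPM in Dcn-high cells. Elastin, Eln, stood at 5.35 CPM in pericytes, 1970.1 CPM in Myh11-high and 1249 CPM in Dcn-high cells, and the collagen-crosslinking enzyme Lox had 1 read in all pericytes against 81.4 and 220.4 CPM. 1 cell held 51.9% of the pericyte reads of Eln, whose log2 difference from the other cells was -8.96 without it in place of -7.95. Against Myh11-high cells 3 were higher and 6 lower, or 1 and 7 with TMM, under which Postn did not pass there, with a median log2 difference of 0.01. Dcn, encoding decorin, was among those 3 through a single Mural2 well at 22442 CPM that held 98.7% of its pericyte reads, and its pooled level in Mural1 pericytes was 12.0 CPM. Without that well its log2 difference from the other cells was -10.54 in place of -4.31.

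Adhesion genes were also divided, with 9 of 34 higher than in the other cells and 7 lower, or 7 and 7 with TMM. The collagen-binding integrin chain Itga1 had a lowest, median and highest level of 41.5, 1637 and 4796 CPM in pericytes, and its pooled 2071 CPM compared with 429.7 CPM in Myh11-high and 39.0 CPM in Dcn-high cells. The protocadherin Pcdh18 stood at 1900.1 against 151 CPM (12.6-fold, 12.3 to 12.9). The laminin-binding chain Itga6 stood at 231 against 19.0 CPM, N-cadherin, Cdh2, which joins pericytes to endothelium, at 105 against 6.48 CPM in 23 pericytes, and the gap junction gene Gja4 at 489.7 against 36.0 CPM. Gja4 and Itga6 were higher still in endothelial cells, at 1004 and 388 CPM.

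Among 28 mitochondrial and hypoxia-linked genes, 3 were higher than in the other cells and 1 lower, and 2 of the 3 were rule markers. The third was Ndufa4l2, a hypoxia-induced relative of the respiratory subunit Ndufa4, at 0, 256 and 1366 CPM in pericytes and a pooled 360.2 CPM against 42.8 CPM (8.42-fold, 8.02 to 8.85). Ndufa4 itself was the gene lower, at 24.0 against 111 CPM, a log2 difference of -2.21, or -2.94 without the cell with the most of its reads. Cox4i1, the usual counterpart of Cox4i2, did not pass, at 303 against 343 CPM. Epas1, the hypoxia-inducible factor HIF-2 alpha, stood at 1459.5 CPM in pericytes, 968 CPM in Myh11-high, 118 CPM in Dcn-high and 5072 CPM in endothelial cells.

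Of 51 transcription factors 8 were higher than in the other cells and 5 lower, or 8 and 6 with TMM, with a median log2 difference of 0.45. Factors of lung mesenchyme development were among the higher: Tbx2 had a lowest, median and highest level of 56.8, 1329 and 4553 CPM and stood at a pooled 1338 against 130.5 CPM (10.2-fold, 9.98 to 10.5), Tbx4 at 572 against 74.0 CPM and Tbx5 at 399 against 63.6 CPM. Foxf2 was 16.3-fold (15.5 to 17.0) higher, Lef1, an effector of WNT signalling, stood at 234 against 17.1 CPM (13.7-fold, 12.8 to 14.7) and the nuclear receptor Nr2f1 at 117 against 11.8 CPM. Each of these 6 stood higher in pericytes than in Myh11-high and Dcn-high cells by pooled level, but Tbx5 did not pass against Myh11-high cells. In that comparison 9 of the 51 were higher and 3 lower, or 5 and 3 with TMM. Lower were Meox2, with 4 reads in pericytes against 258 CPM in Dcn-high cells, and Gata6, whose 2.67 CPM came from 1 pericyte against 71.2 CPM in the other cells, a log2 difference of -4.74, or -7.81 without that cell.

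Of 31 chemokine, cytokine and complement genes 4 were higher than in the other cells and 14 lower, and the same 4 were higher than in each of the Myh11-high and Dcn-high classes. With TMM Kitl no longer passed against Myh11-high nor Cxcl14 against Dcn-high cells, and Mural2 cells alone gave 3 higher than in the other cells and 2 than in each class. The 4 genes were Tslp, an epithelial-type cytokine (159.6 against 4.91 CPM, 32.5-fold, 28.9 to 36.7), the chemokine Cxcl14 (325 against 46.2 CPM), Il34, a ligand of the macrophage receptor Csf1r (147 against 13.2 CPM), and Kitl, or stem cell factor (391 against 51.0 CPM). Tslp was read in 29 and Il34 in 17 of 56 pericytes. Cxcl12, the ligand of Cxcr4, was at 9.46 CPM in pericytes against 840.1 CPM in the others and 716 CPM in endothelial cells, with a log2 difference from the other cells of -6.47, or -7.79 without the cell that held 60.9% of its pericyte reads. Complement C3 had 10 reads in pericytes and 2766 CPM in Dcn-high cells.

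Of 37 growth factor, WNT and retinoid genes 3 were higher and 8 lower, or 2 and 8 with TMM, under which Hgf did not pass, with Hbegf, Wnt4 (239 against 12.1 CPM, 19.8-fold, 18.3 to 21.5) and Hgf, hepatocyte growth factor (129 against 29.0 CPM), on the pericyte side and Igf1 (10.1 against 475 CPM) on the other. 1 cell held 86.7% of the pericyte reads of Igf1, and without it its log2 difference was -8.45 in place of -5.56. In TGF-beta and BMP signalling 2 of 41 were higher, the coreceptor Eng (1119 against 243 CPM) and the latent TGF-beta binding protein Ltbp2 (2188 against 239.5 CPM, 9.13-fold, 8.95 to 9.32), and 9 lower, and Eng did not pass with TMM. Of 38 proteases and inhibitors 1 was higher, the angiotensin-cleaving aminopeptidase Enpep (262 against 47.0 CPM), and 14 lower, or 16 with TMM. Plat, the tissue plasminogen activator, was 23.3-fold above Myh11-high cells but stood at 408 CPM in Dcn-high cells against 578 CPM in pericytes. Of 34 guidance genes 2 were higher, Unc5b and Sema6d, and 6 lower, with Sema6d lost under TMM, and of 33 lipid and transporter genes none was higher and 8 lower.

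**Figure D5:**
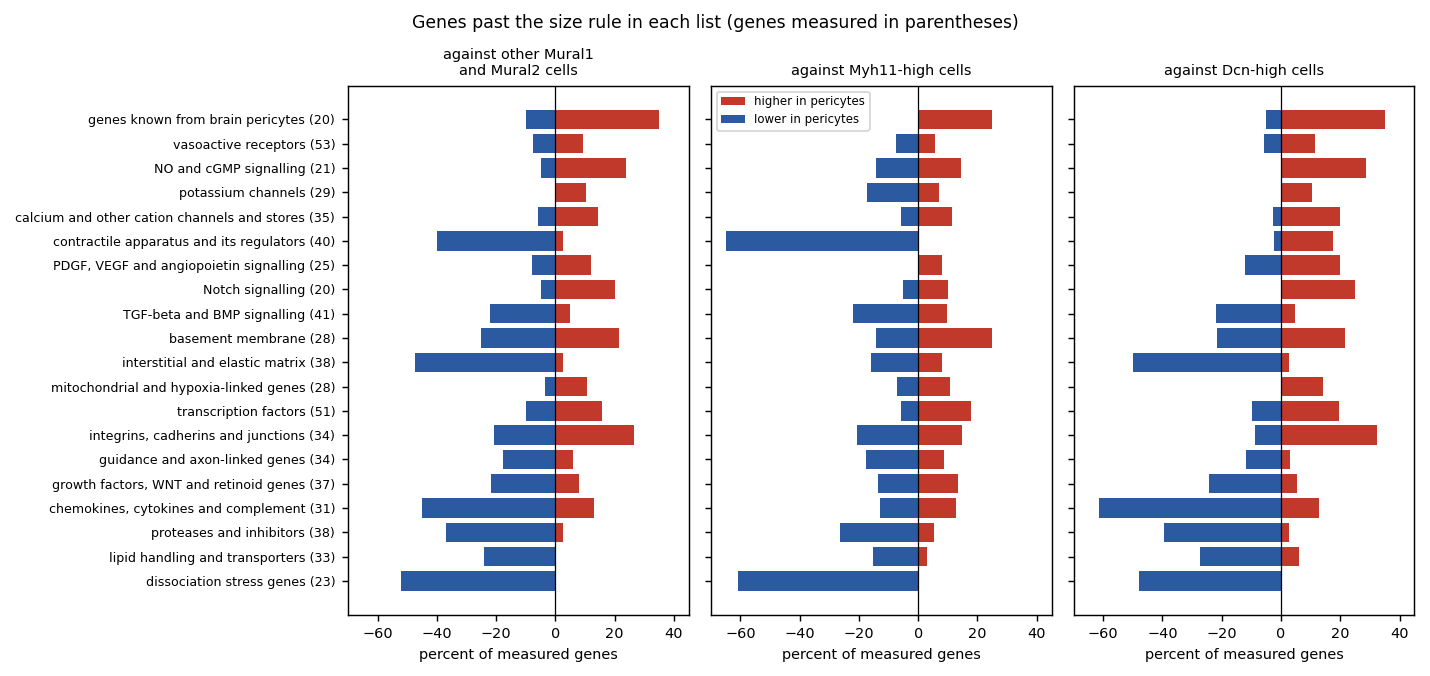
Percent of the measured genes of each list that passed higher (red, to the right) or lower (blue, to the left) in pericytes against the other Mural1 and Mural2 cells, Myh11-high cells and Dcn-high cells, with the number measured in parentheses. Contractile genes were lower against Myh11-high cells (26 of 40), interstitial matrix lower against Dcn-high cells (19 of 38) and stress genes lower in all 3 comparisons. Over all genes of the table the shares higher and lower were 1.62% and 2.07%, 1.64% and 1.98%, and 2.25% and 2.11%, from left to right.

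Genes known to be induced by tissue dissociation differed between the groups. Of 23 such genes 12 were lower in pericytes than in the other cells and none higher, with a median log2 difference of -2.64. The immediate early gene Fos had 0, 0 and 2969.5 CPM in the lowest, median and highest pericyte against 0, 5512 and 22516 CPM in Myh11-high and 0, 1018 and 17047 CPM in Dcn-high cells, and 10 of 56 pericytes were at 100 CPM or more. Its log2 difference from the other cells was -4.76, or -5.44 without the cell that held 38.8% of its pericyte reads. Egr1 stood at 67.5 against 1980.3 CPM. The summed list had a median of 1666 CPM per pericyte, 9413 CPM in the other cells and 1186 CPM in endothelial cells. The part of this, and of the lower read depth of pericytes, in the other differences was not tested.

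Against endothelial cells 511 genes were higher in pericytes (2.33%) and 339 lower (1.54%), but these come from other column sets, and a difference in sort or library between sets cannot be told apart from cell type. Postn (9717 against 0.875 CPM), Ednra (1079.8 against 0.0123 CPM), Foxf2 (602 against 0.0493 CPM), Spp1, or osteopontin (2229 against 0.179 CPM), and Dkk3 (709.7 against 0.0555 CPM) had the largest folds, and in the endothelial cells Ednra had 2 reads in all. Spp1 was read in 23 of 56 pericytes, with a median of 0. The endothelial genes Cldn5 (1.54 against 11092 CPM) and Podxl (0.720 against 1806 CPM) were far lower. Emcn, an endothelial sialomucin, had no read in any pericyte. Counted as 3 reads over the group, it was 2099.6-fold lower than its 648 CPM in endothelial cells, a value set by that floor. Of 12 endothelial markers 1 passed higher than in the other Mural1 and Mural2 cells, Eng, and none with TMM. The summed level of the list was 1649 CPM in pericytes, of which Eng made 1119 CPM, against 34788 CPM in endothelial cells.

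Markers of other cells were present in some wells, most of them of Mural2. Their part in the differences was examined only by leaving such wells out. 7 pericytes, all of Mural2, had Sftpc and Scgb1a1 together at 1000 CPM or more, 7 wells, again all of Mural2, had the macrophage and alveolar gene Lyz2 at 100 CPM or more, and 1 Mural2 well had Dcn at 1000 CPM or more. 22 pericytes held reads of 3 or more of 12 endothelial markers (5 of Mural1 and 17 of Mural2), 6 of 3 or more of 11 leukocyte markers and 12, all of Mural2, of 3 or more of 12 epithelial markers. No doublet caller was run. With the 25 wells of 3 or more endothelial or leukocyte markers left out, and the other groups treated alike, 395 genes were higher than in the other cells and 532 lower, and 665 of the 811 genes that passed were called again. With the epithelial limit at 1000 CPM, 49 pericytes remained, with 366 genes higher than in the other cells and 496 lower. Of the 161 named genes that had passed, chosen in largely the same cells, none reversed, and 160 stayed at 4-fold or more. The log2 difference of Igf1 was then -8.49 in place of -5.56, and of P2rx1 -9.38 in place of -6.0. Without the Mural2 well high in Dcn, the difference was -7.25 in place of -3.74 for Fn1 and -8.96 in place of -7.95 for Eln. These equal the values without the top cell of each.

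Mural1 and Mural2 pericytes were compared with a 2-fold limit, which 712 genes passed higher in Mural1 (3.24%) and 481 lower (2.19%). None of the 18 pericyte markers passed higher and 1 lower, Ndufa4l2 (223 CPM in Mural1 and 459 CPM in Mural2). Pdgfrb stood at 7980.5 and 4844 CPM, Cox4i2 at 1317 and 1537 CPM and Postn at 8569.9 and 10547 CPM. The largest folds were of sparse genes such as Alg12 (88.2 against 0.532 CPM) and Gal, or galanin (56.9 against 0.532 CPM), each with its reads in 7 or 8 pericytes, and on the Mural2 side of Lyz2 (2.45 against 552 CPM) and Irgq (0 against 106 CPM). Single wells held 50.2% of the pericyte reads of Gal, 46.5% of Lyz2 and 36.6% of Irgq. Whether these sets are different animals or plates cannot be told from the labels. No 2 columns of the table were identical, and 85 well names occurred in both sets.

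Among pericytes the most variable genes, by variance over mean of thinned reads, were the ribosomal precursor Rn45s, the matrix metalloproteinase inhibitor Timp3, the nuclear RNA Malat1, Postn and Bgn, or biglycan. Rn45s had a lowest, median and highest level of 11128, 27508 and 167794 CPM, so 1 pericyte gave 16.8% of its reads to it. Timp3 had a lowest, median and highest level of 0, 164 and 19100.1 CPM, with 1 well holding 30.5% of the group's reads, and Bgn had 16.6, 2437 and 20591 CPM. Lhfp, a tetraspan membrane protein, had a lowest, median and highest level of 33.3, 2501 and 14081 CPM and differed between the sets, at 4384 CPM in Mural1 and 2059.6 CPM in Mural2.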

How the data were processed

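The deposited table gives whole-number read counts of 21948 features, the reporter included, in 1504 single cells. The authors aligned the reads with STAR 2.4.2a to mm10, per the submitters' processing notes. The counter, the annotation, its use of strand and any filter on cells are not given in the sources used here, so overlapping and antisense genes cannot be told apart. A second deposited table of normalized values, treated as a score, holds for each count the reads times 500000 over the cell total, rounded, to within 0.5, and served only as an alternative. Columns were assigned to their set by name. Each cell had at least 100239 reads, so 1 read was worth at most about 10 CPM in a single cell.

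Members were found by the thresholds given above, and members, lists and classes were chosen with earlier results of these data known. Pooled counts were scaled to CPM and compared by size with no test, since the labels name no animal. The comparison of Mural1 with Mural2 pericytes needed 20 cells a side. Conditional exact 95% intervals of folds were computed with scipy 1.17.1, and cells were thinned with a fixed seed in numpy 2.4.6 (Python 3.11.15, pandas 2.3.3). TMM factors came from edgeR 4.0.16 in R 4.3.3. The method was tested on simulated counts. Marker sums used the lists for each cell type.

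Genes were named by rule: the genes of the selection and reporters, the 20 largest folds on the pericyte side and 10 on the other against the other cells, 10 each way against each class, 5 each way against endothelial cells and between sets, up to 6 members of each list, and the 10 genes of largest variance over mean. Predicted, ribosomal protein and mitochondrial genes were not named. Further list members, such as Col4a2, Des, Itga1, Mylk, S1pr3, Tbx4 and Tbx5, were named after their values were seen. Of the genes named here, promoters were looked up in RefSeq by symbol. Alternatives covered scaling, folds, filters, thinning, the thresholds of the selection and left-out wells. Mural3 cells were used only to apply the selection. The values of 1 listed channel gene are not reported here.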

Additional observations from a re-analysis of the deposited data

How the results depend on the processing

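Counts of genes that passed moved most with the limits themselves. In the order other cells, Myh11-high, Dcn-high, endothelial cells and Mural1 against Mural2 pericytes, a fold of 2 (1.5 between sets) gave 1808, 1851, 2069, 1417 and 2013 genes, no filter on low values 7665, 5468, 5846, 7443 and 8774, and a minimum of 200 CPM 389, 353, 466, 532 and 262. A fold of 8 gave 439, 407 and 589 in the first 3, and a fold of 4 gave 343 between sets. Mural1 alone gave 1215 genes against Myh11-high cells, of which Mural1 holds 19. Requiring Myh11 under 100 CPM left 29 pericytes. Without the other cells that hold 2 or more rule markers, 401 genes were higher and 477 lower than in the other cells, and 478 and 494 than in Myh11-high cells. Of 161 named genes that passed, none reversed in 15 alternatives, and 150 to 161 stayed at 4-fold or more. The alternatives reuse the cells in which these genes were chosen, so their direction was largely fixed in advance. Folds moved by over 1.5 times for 56 genes without the cell that gave most reads to each gene. They did so for 103 with Mural1 alone, for 63 with Mural2 alone and for 112 with Myh11 under 100 CPM. The settings without wells of endothelial or leukocyte markers and with Myh11 under 100 CPM left under 20 cells a side between sets and gave no value there. No paired analysis was possible because the columns carry no replicate number and the comparisons have no test; values within Mural1 and within Mural2 stand in the report. Depth limits single cells: after thinning, a gene with no read in 56 pericytes may still be expressed.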
